A study of Homo sapiens with 6 samples.

Results

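The transcripts of 10 glucose-metabolism genes that hypoxia-inducible factor (HIF) is known to drive were followed in pancreatic tumors with and without the oral iron chelator Deferasirox (DFX). The genes were SLC2A1, HK2, PFKFB3, PFKFB4, ALDOA, ALDOC, PGK1, ENO1, LDHA and PDK1, and every non-control probe with one of these names on the array was kept. They had 14 of the 50599 probes, and 10 of the 36337 distinct names, on the array. All 14 probes passed the detection filter, which required a signal different from background on all 6 arrays.

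The tumors grew under the skin from cells of the human pancreatic adenocarcinoma line BxPC-3, injected into female BALB/c nu/nu mice, a strain that lacks a functional thymus and so T cells. Dosing started at a tumor volume of 150 mm3 in both groups. It was given by gavage with 3 treatments per week for 21 days, as vehicle alone or as 200 mg/kg DFX suspended in saline. The study drew 3 tumors at random from each group (vehicle replicates 1 to 3 and DFX replicates 1 to 3). Each was excised at the end of dosing and measured on 1 one-color array of human 60-mer probes. All tumors came from 1 cell line, and RNA of the mouse host could also bind to the probes.

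HIF is a pair of proteins, an oxygen-regulated alpha subunit and a constant beta subunit. When oxygen is present, prolyl hydroxylases that use iron as a cofactor mark the alpha subunit for destruction. In hypoxia, or when an iron chelator inhibits these enzymes in cultured cells, the alpha subunit accumulates and the pair binds DNA at a short core sequence near its target genes. The 10 genes span the route of glucose through the cell. SLC2A1 is the glucose transporter GLUT1, HK2 a hexokinase that traps glucose as its phosphate, and PFKFB3 and PFKFB4 make the activator of phosphofructokinase. ALDOA and ALDOC are aldolases, PGK1 and ENO1 act in its lower, ATP-yielding steps, LDHA makes lactate from pyruvate, and PDK1 is a kinase that restrains pyruvate entry into mitochondria. The comparison asked whether the levels of these transcripts differed between DFX and vehicle tumors.

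The core sequence is shown here to let a reader see where it occurs near these genes. The 250 bases before each annotated transcription start were searched for ACGTG and GCGTG on both strands in the RefSeq promoter table of GRCh38.p14. On the other strand these read CACGT and CACGC, and the palindrome CACGTG holds ACGTG on both strands. Either core was present in 14 of the 16 start sites of the 10 genes, which is 87.5%, beside 43.2% of all 35116 start sites in that table. ACGTG alone was in 62.5% of the member windows and 18.5% of all windows. The member windows were also richer in G and C (median 71% against 58%), and the part of base composition in the difference was not tested. SLC2A1 had no match in its window, and the other 9 genes had at least 1. Examples are printed 5′ to 3′ on the strand of the gene, with the core in capitals.
PFKFB4, chr3:48556953-48556981, minus strand: tgagttgggcatGCGTGgtcggaggccgg
HK2, chr2:74835009-74835038, plus strand: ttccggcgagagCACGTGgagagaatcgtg
PGK1, chrX:78104053-78104081, plus strand: aaacggaagccgCACGTctcactagtacc
ENO1, chr1:8878836-8878864, minus strand: cacccccctttcCACGCtactgcagccgt
LDHA, chr11:18394464-18394493, plus strand: cagcccgactcaCACGTGggttcccgcacg
ALDOA, chr16:30064373-30064402, plus strand: tggcagggaggcCACGTGatccgagtcccc
A match shows only that these letters are present, since binding was not measured in these tumors.

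Some facts of the arrays bear on every value. The share of probes well above background was 50.3% to 56.5% on the 6 arrays, and 0 spots were saturated. Log2 intensities of 2 vehicle arrays correlated at 0.983 to 0.990, those of 2 DFX arrays at 0.984 to 0.987 and those of a vehicle and a DFX array at 0.980 to 0.988. All 6 arrays were on 1 slide with the vehicle tumors in row 1 and the DFX tumors in row 2, so row and treatment cannot be told apart. The carcinoma markers KRT7, KRT8, KRT18, KRT19, EPCAM and CDH1 were all detected. Markers moved with the treatment too. Of 9 epithelial probes, 3 were higher with DFX at an unadjusted p under 0.05, namely EPCAM (log2 difference 0.43), 1 of 3 KRT8 probes (0.48) and 1 of 2 KRT18 probes (0.27), while the others ranged from -0.17 for KRT7 to 0.24. Of 3 probes of the alpha-globin gene HBA2, the 2 bright ones had log2 differences of -1.93 and -1.99 (adjusted p = 0.093 for both in limma), and the third was well above background on 1 array only. The summed linear intensity of the epithelial list was 619112 to 624333 in vehicle and 630876 to 643414 in DFX tumors, and that of the red blood cell list was 6618 to 7887 and 3058 to 3221. For fibroblast genes it was 11733 to 19080 and 10481 to 13103, with PDGFRB not well above background on any array, a bright DCN probe at -1.30 and LUM at 0.87, both called at an unadjusted p under 0.05. For leukocyte genes it was 1898 to 2248 and 1991 to 2360, with CSF1R not well above background on any array, and for endothelial genes it was 482.1 to 946.7 and 555.8 to 599.3, with KDR likewise dim. The endothelial sum hid PECAM1, whose 3 probes were all called higher without overlap (1.27 and 1.64 for 2 of them, the third well above background on 1 DFX array only), while the brighter VWF was at -0.58. For skeletal muscle genes it was 982.7 to 2476 and 1583 to 2477, with ACTA1, MYH2 and MYL1 dim. The part of cell composition in the values below was not tested, and in bulk tissue fewer cells of a type and less RNA per cell cannot be told apart.

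PFKFB4 had the largest difference among the brightest probes of the members, and it was the 1 of 14 member probes that passed an unadjusted p of 0.05 in limma. That is 7.14% of the member probes, beside 8.41% of all 31807 tested probes. By direction, 1 member probe was higher and 0 were lower with DFX, beside 3.46% and 4.95% of all tested probes. With p-values adjusted by the Benjamini-Hochberg method over the whole array, limma called 0 of 31807 probes (0%), and the lowest adjusted p was 0.0675. The members' adjusted p ranged from 0.57 to 0.95. Taking the brightest probe of each gene, 6 members were higher and 4 lower with DFX, with a median log2 difference of 0.16. Over all 23810 tested gene names, 11341 were higher and 12469 lower, with a median of -0.01. The member median was not stable. Without DFX replicate 3 it was -0.02, with 5 members higher and 5 lower, and with array quality weights it was -0.04. It was 0.06 without vehicle replicate 3, 0.26 without vehicle replicate 2, with 8 higher and 2 lower, and 0.05 under median scaling. For 5 genes (ALDOA, ALDOC, PGK1, ENO1 and LDHA) the whole 95% interval of the brightest probe lay below a 1.5-fold higher level, and for all 10 genes it lay above a 1.5-fold lower level.

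**Figure D1:**
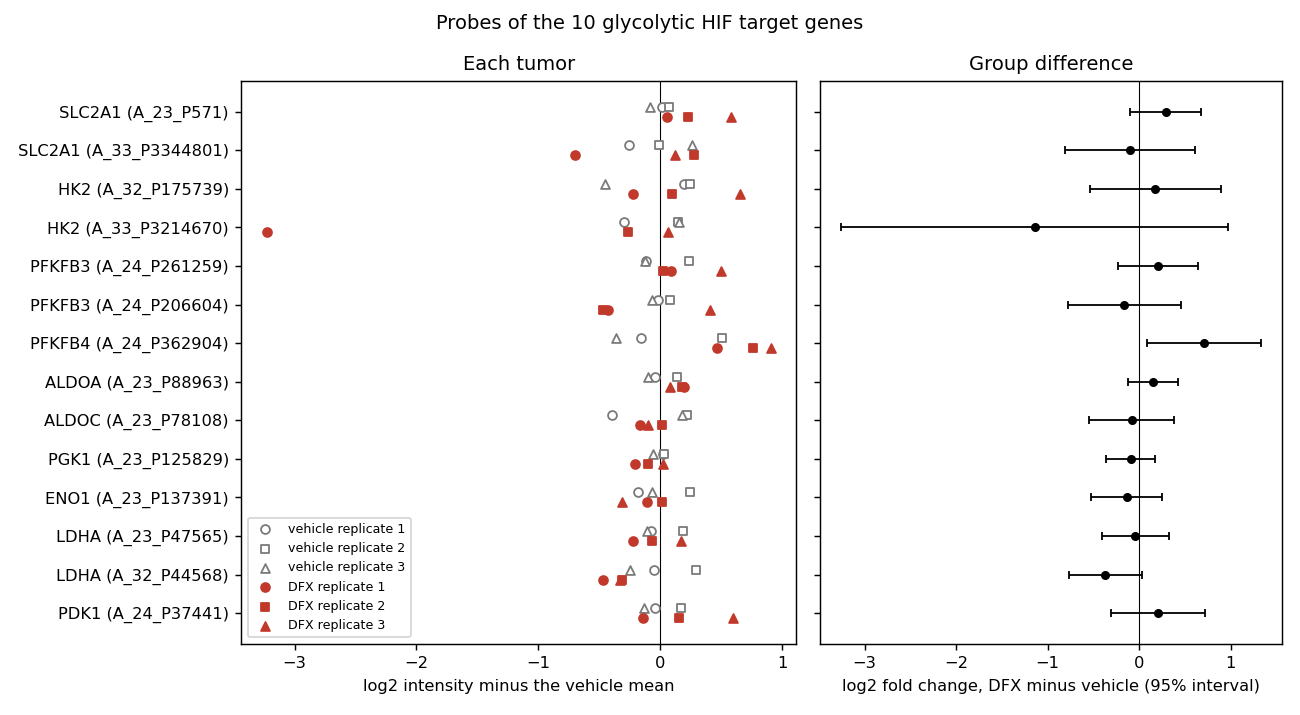
Left, log2 intensity of each of the 14 member probes in each of the 6 tumors, minus the vehicle mean of that probe (open gray, vehicle; filled red, DFX; circle, square and triangle, replicates 1, 2 and 3). Right, the log2 difference between the groups with its 95% interval from limma, where only the interval of PFKFB4 lies off 0. SLC2A1 A_33_P3344801 was not well above background on any DFX array, so its position carries no fold.

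Glucose entry was measured through SLC2A1 and HK2. The SLC2A1 probe A_23_P571 read 15.01, 15.06 and 14.91 in the vehicle tumors and 15.05, 15.22 and 15.57 in the DFX tumors on the log2 intensity scale. DFX replicate 3 was the highest tumor, and DFX replicate 1 lay within the vehicle range. The group means were 14.99 ± 0.08 and 15.28 ± 0.27 (SD, n = 3 each), a log2 difference of 0.29 (SE 0.16, limma unadjusted p = 0.118), or a fold of 1.22 with a 95% interval of 0.93 to 1.60. Without DFX replicate 3 the difference was 0.14. The other SLC2A1 probe, A_33_P3344801, was well above background on 1 vehicle array and on no DFX array, so no fold is given for it.

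HK2 varied more from tumor to tumor. Its bright probe, A_32_P175739, read 13.33, 13.38 and 12.68 in the vehicle tumors and 12.91, 13.23 and 13.79 in the DFX tumors. The lowest tumor was a vehicle tumor, the highest was DFX replicate 3, and the groups overlapped. The difference was 0.18 (SE 0.29, limma unadjusted p = 0.565), with a fold of 1.13 and a 95% interval of 0.69 to 1.86. It turned to -0.05 without vehicle replicate 3, to -0.06 without DFX replicate 3 and to -0.09 with array quality weights, so no direction can be given. The dim probe of HK2, A_33_P3214670, read 4.79, 5.23 and 5.24 in vehicle and 1.86, 4.83 and 5.16 in DFX tumors. It was not well above background in DFX replicate 1, the tumor at 1.86. Its difference of -1.14 (SE 0.87) became -0.10 when that tumor was left out.

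The activators of phosphofructokinase came next. PFKFB4, on the array a probe at chr3:48555454-48555513 of hg19, read 8.75, 9.41 and 8.54 in the vehicle tumors and 9.37, 9.66 and 9.81 in the DFX tumors. The groups overlapped by a small step, since DFX replicate 1 at 9.37 was below vehicle replicate 2 at 9.41. The means were 8.90 ± 0.45 and 9.61 ± 0.23 (SD, n = 3 each). The log2 difference was 0.71 (SE 0.26), a fold of 1.64 with a 95% interval of 1.06 to 2.53, at an unadjusted p of 0.0312 and an adjusted p of 0.57 in limma. The difference was above 0 in all 17 alternatives, from 0.48 to 0.97, and the unadjusted p was under 0.05 in 10 of them. The call was lost without vehicle replicate 1 (0.64), vehicle replicate 3 (0.53), DFX replicate 2 (0.69) or DFX replicate 3 (0.61), and with array quality weights, without moderation of the variance and in the Kruskal-Wallis H test.

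PFKFB3, the related enzyme with the highest ratio of kinase to phosphatase activity, did not show the same size of difference. Its bright probe, A_24_P261259, read 10.81, 11.16 and 10.80 in vehicle and 11.01, 10.94 and 11.42 in DFX tumors. DFX replicates 1 and 2 lay within the vehicle range, and DFX replicate 3 was above it. The difference was 0.20 (SE 0.18, limma unadjusted p = 0.3), and it was 0.05 without DFX replicate 3. The dimmer PFKFB3 probe, A_24_P206604, read 6.65, 6.75 and 6.59 in vehicle and 6.24, 6.19 and 7.07 in DFX tumors. Here DFX replicates 1 and 2 were below every vehicle tumor and DFX replicate 3 was above every one, for a difference of -0.16 (SE 0.25, limma unadjusted p = 0.545). Without DFX replicate 3 it was -0.45 at an unadjusted p of 0.0116. Whether PFKFB4 and PFKFB3 differed in their response was not tested.

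The aldolases and the lower steps of glycolysis follow. ALDOA, the aldolase of muscle and of most proliferating cells, read 15.95, 16.14 and 15.90 in vehicle and 16.19, 16.18 and 16.08 in DFX tumors. DFX replicates 1 and 2 were above every vehicle tumor and DFX replicate 3 was not. Its difference was 0.15 (SE 0.11, limma unadjusted p = 0.226), with a fold of 1.11 and a 95% interval of 0.92 to 1.34. ALDOC, the aldolase known from brain, read 9.11, 9.72 and 9.68 in vehicle and 9.34, 9.52 and 9.40 in DFX tumors, with all DFX values inside the vehicle range. The difference was -0.08 (SE 0.19, limma unadjusted p = 0.687), and it was 0.03 without vehicle replicate 2.

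PGK1, which makes the first ATP of glycolysis, was the best measured member, with 10 spots of 1 probe on each array. The SD of log2 intensity over these spots was 0.018 to 0.048 within an array. PGK1 read 15.86, 15.87 and 15.78 in vehicle and 15.63, 15.74 and 15.86 in DFX tumors. DFX replicates 1 and 2 were below every vehicle tumor, while DFX replicate 3 was level with vehicle replicate 1. The difference was -0.09 (SE 0.11, limma unadjusted p = 0.425), and the fold of 0.94 had a 95% interval of 0.78 to 1.13. ENO1, the enolase of most tissues, read 14.58, 15.01 and 14.70 in vehicle and 14.65, 14.78 and 14.45 in DFX tumors. The ranges overlapped, and the difference was -0.13 (SE 0.16, limma unadjusted p = 0.434), with a fold of 0.91 and a 95% interval of 0.70 to 1.19. It was -0.01 without vehicle replicate 2 and -0.23 without vehicle replicate 1.

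The fate of pyruvate was measured through LDHA and PDK1. PDK1 read 10.62, 10.83 and 10.53 in vehicle and 10.53, 10.82 and 11.26 in DFX tumors. Only DFX replicate 3 was above the vehicle range. The difference of 0.21 (SE 0.21, limma unadjusted p = 0.362) was 0.01 when that tumor was left out.

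LDHA had 2 probes that gave different answers, so their sequences are shown, in lower case, with the positions the array annotation gives them on hg19.
A_23_P47565, chr11:18428789-18428848: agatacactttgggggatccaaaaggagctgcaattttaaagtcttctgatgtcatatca
A_32_P44568, chr9:14921817-14921876: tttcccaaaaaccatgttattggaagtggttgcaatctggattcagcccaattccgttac
LDHA lies on chromosome 11, where the first probe is placed. The annotation names both probes LDHA with the same transcript, but places the second on chromosome 9. RefSeq lists 6 LDHA pseudogenes, of which LDHAP4 is on chromosome 9, so the second probe may read a near-identical copy and its values are uncertain. The first probe read 15.14, 15.40 and 15.11 in vehicle and 14.99, 15.15 and 15.39 in DFX tumors. The ranges overlapped, with a difference of -0.04 (SE 0.15, limma unadjusted p = 0.795) and a fold of 0.97 (95% interval 0.75 to 1.25).

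The second LDHA probe read 12.83, 13.18 and 12.64 in vehicle and 12.42, 12.57 and 12.55 in DFX tumors. Every DFX tumor was below every vehicle tumor. The difference was -0.37 (SE 0.16), a fold of 0.77 with a 95% interval of 0.59 to 1.02, at an unadjusted p of 0.0634 and an adjusted p of 0.61 in limma. With each tumor left out it ranged from -0.49 to -0.22, and it passed the unadjusted threshold without vehicle replicate 3 (-0.49). It also passed with array quality weights (-0.49), where PFKFB4 did not. It was the only member probe whose groups did not overlap, so 0 member probes were separated upward and 1 downward, beside 6.34% and 9.15% of all tested probes. Within each tumor, the first probe minus the second was 2.31, 2.23 and 2.48 in vehicle and 2.58, 2.58 and 2.84 in DFX tumors. This within-tumor difference was 0.33 greater with DFX on average. The pair was compared after its values were seen, so this is a description with no test.

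**Figure D2:**
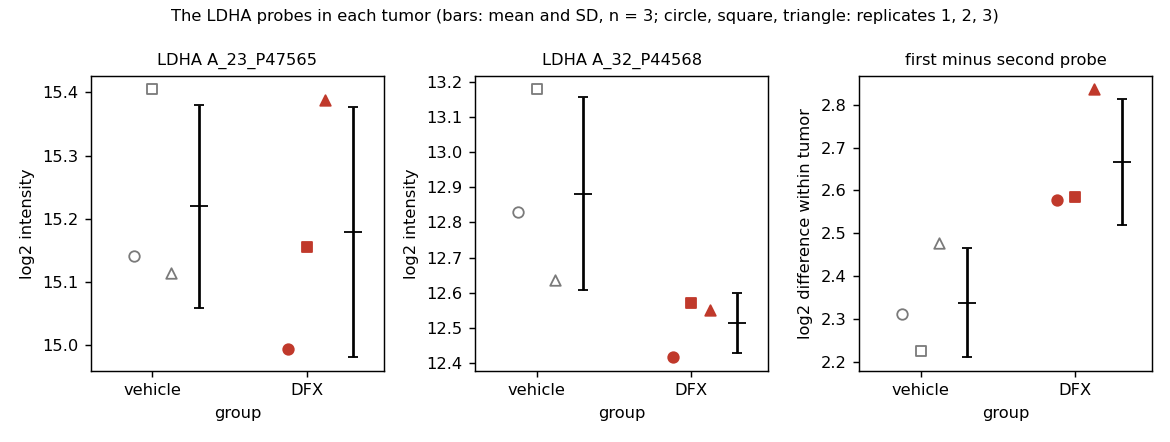
Log2 intensity of the 2 LDHA probes, and the difference of the first minus the second within each tumor, by group (open gray, vehicle; filled red, DFX; black bars, mean and SD, n = 3). The groups overlap for the chromosome 11 probe (A_23_P47565) and do not overlap for A_32_P44568 or for the difference, and the y axes do not start at 0.

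The spread from tumor to tumor was shared by many of the members. Expressed as the deviation of each gene's brightest probe from its mean over the 6 tumors, the median of the 10 members was -0.13, 0.14 and -0.20 in vehicle replicates 1 to 3 and -0.10, 0.06 and 0.30 in DFX replicates 1 to 3. DFX replicate 3 was the highest of the 6 tumors for 5 members (SLC2A1, HK2, PFKFB3, PFKFB4 and PDK1), and 17.2% of all 23806 gene names compared were highest there. Vehicle replicate 2 was the highest for 4 members (ALDOC, PGK1, ENO1 and LDHA), beside 12.5% of all names. Vehicle replicate 3 was the lowest for 5 members, beside 20.9% of all names. In vehicle replicate 2, 9 of 10 members were above their mean over the tumors, and in DFX replicate 3 this held for 8 of 10. In vehicle replicates 1 and 3 and in DFX replicate 1 it held for 2 of 10 in each. The share of all gene names above their mean was not computed for these tumors. For the members, high and low tumors were thus present in both groups.

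Pairs of members were alike to a varying degree. Over the 6 tumors the correlation between 2 members had a median of 0.35 over 45 pairs, from -0.46 to 0.94, and 37 pairs were above 0. All pairs share the same 6 arrays, so these are descriptions. Among all genes other than the members, EDEM1 (Pearson r = 0.99), NIPA1 (0.98) and LOC100130093 (0.98) had the profiles most like the members' median profile. This ranking was over 6 tumors and 18548 names, of which 102 had an r over 0.9.

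**Figure D3:**
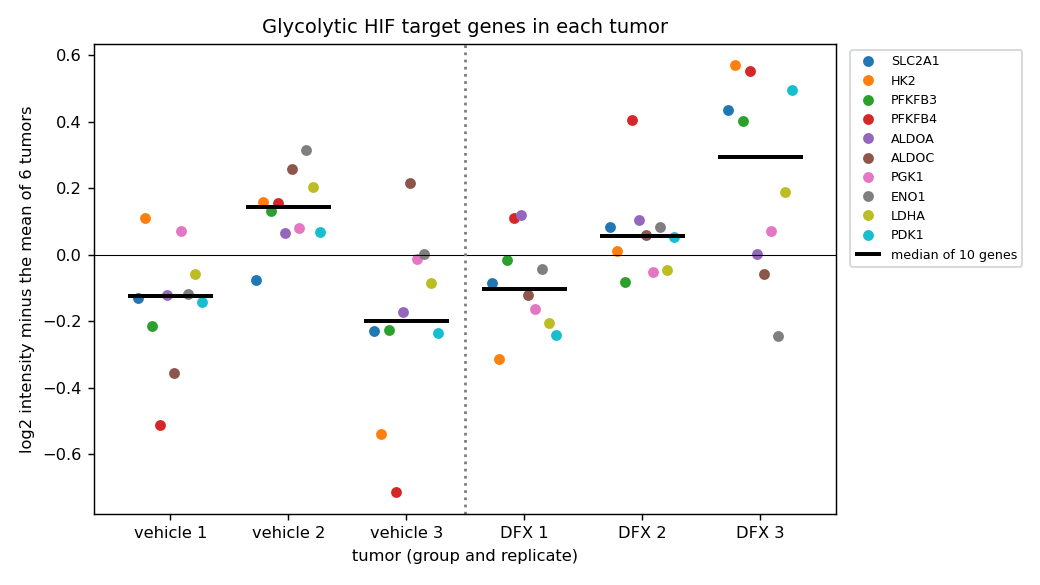
Log2 intensity of the brightest probe of each of the 10 genes in each tumor, minus its mean over the 6 tumors, with vehicle tumors left and DFX tumors right of the dotted line. The black bars are the median of the 10 genes, which is highest in DFX replicate 3 (0.30) and lowest in vehicle replicate 3 (-0.20), with vehicle replicate 2 (0.14) above the other vehicle tumors.

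Other known HIF targets were read for the same tumors, from a list of 22 genes with no glycolytic role. Of these, 21 genes with 28 probes were tested, and 2 probes were higher and 0 lower with DFX at an unadjusted p under 0.05 (7.14% and 0%, beside 3.46% and 4.95% of all tested probes). ANGPTL4, a secreted inhibitor of lipoprotein lipase, read 12.88, 13.25 and 12.38 in vehicle and 13.32, 13.57 and 13.88 in DFX tumors. Every DFX tumor was above every vehicle tumor, with a difference of 0.75 (SE 0.26, limma unadjusted p = 0.0280, adjusted p = 0.56). LOX, the enzyme that cross-links collagen, read 6.26, 6.78 and 6.64 in vehicle and 6.76, 7.30 and 7.24 in DFX tumors, a difference of 0.54 (SE 0.21, limma unadjusted p = 0.0415, adjusted p = 0.58). Neither gene was called without vehicle replicate 1 (0.77 for ANGPTL4 and 0.39 for LOX), vehicle replicate 3 (0.52 and 0.58), DFX replicate 2 (0.76 and 0.44) or DFX replicate 3 (0.61 and 0.47). By the brightest probe, 18 of these targets were higher and 3 lower, with a median of 0.18. Without DFX replicate 3 there were 12 higher and 9 lower, with a median of 0.01. The median was 0.06 under median scaling, with 15 higher and 6 lower, 0.05 with array quality weights, with 13 higher and 8 lower, and 0.12 without vehicle replicate 3. DFX replicate 3 was the highest of the 6 tumors for 16 of the 21 genes, compared with 5 of the 10 glycolytic members.

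The subunits of HIF itself gave 0 of 6 tested probes at an unadjusted p under 0.05 in limma, beside 8.41% of all tested probes. By overlap, 1 probe was separated upward and 1 downward, or 16.7% each, beside 6.34% and 9.15% of all tested probes. The separated probes were of EPAS1 and ARNT, and no probe of HIF1A or HIF3A was called or separated. EPAS1, which encodes HIF-2 alpha, read 13.63, 13.84 and 13.57 in vehicle and 13.90, 13.90 and 13.97 in DFX tumors. The groups did not overlap, and the difference was 0.24 (SE 0.11, limma unadjusted p = 0.0777, adjusted p = 0.63). ARNT, the beta subunit, was separated the other way, with 6.94, 6.86 and 6.94 in vehicle and 6.83, 6.53 and 6.71 in DFX tumors, and a difference of -0.23 (SE 0.12, limma unadjusted p = 0.105, adjusted p = 0.65). These are transcript levels, and the HIF proteins were not measured on the arrays.

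The remaining genes of glycolysis and pyruvate handling formed a list of 46 genes, of which 40 with 49 probes were tested. At an unadjusted p under 0.05, 4 probes of 3 genes were higher and 2 probes of 2 genes lower with DFX, or 8.16% and 4.08% of the probes tested, beside 3.46% and 4.95% of all tested probes. The median over the genes' brightest probes was 0.03, with 22 higher and 18 lower, and it was -0.08, with 12 higher and 28 lower, under median scaling, which shifted the median of all probes by -0.08. Without vehicle replicate 1 the median was -0.03, and without DFX replicate 3 it was -0.02. On no array were SLC2A3, GAPDHS, PGK2, LDHAL6B, FBP2 or SLC2A4 well above background.

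The mitochondrial steps of pyruvate and lactate use are given first. MPC1, a subunit of the carrier that brings pyruvate into mitochondria, is listed on the array under its older symbol BRP44L. Its probe A_23_P110961 read 8.63, 8.69 and 8.37 in vehicle and 9.49, 9.46 and 9.27 in DFX tumors. All DFX tumors were above all vehicle tumors. The difference was 0.85 (SE 0.13, limma unadjusted p = 0.000731, adjusted p = 0.50), a fold of 1.80 with a 95% interval of 1.43 to 2.26, and the other MPC1 probe gave 0.85 (SE 0.17) as well. MPC2, the partner subunit (BRP44 on the array), was separated the other way, at 11.83, 11.61 and 11.69 in vehicle and 11.39, 11.50 and 11.23 in DFX tumors, a difference of -0.34 (SE 0.12, limma unadjusted p = 0.0331). It was not called without vehicle replicate 1 (-0.28), vehicle replicate 3 (-0.35), DFX replicate 1 (-0.35) or DFX replicate 3 (-0.27). LDHD, a mitochondrial enzyme that oxidizes D-lactate, read 7.89, 8.07 and 7.39 in vehicle and 8.61, 9.09 and 8.56 in DFX tumors, a difference of 0.97 (SE 0.23, adjusted p = 0.51 in limma). PDHB, a subunit of pyruvate dehydrogenase, was 0.37 higher (SE 0.11, limma unadjusted p = 0.0164), and was not called without vehicle replicate 2 (0.35), DFX replicate 1 (0.36) or DFX replicate 2 (0.31), nor under median scaling (0.26). All of these had adjusted p of 0.50 or more.

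Among genes on the lower side, BPGM, which makes 2,3-bisphosphoglycerate and is abundant in red blood cells, read 11.19, 11.16 and 11.21 in vehicle tumors and at most 10.92 in DFX tumors. The difference was -0.37 (SE 0.11, limma unadjusted p = 0.0125, adjusted p = 0.51), with no overlap, and it was -0.31 and no longer called without DFX replicate 1. The summed red blood cell markers given above were also lower with DFX in every tumor, and their part in the BPGM value was not tested. PGAM1, a phosphoglycerate mutase, had 2 probes with no overlap and differences of -0.51 (SE 0.21) and -0.21 (SE 0.11), neither under an unadjusted p of 0.05. Because PGAM4 is a near-identical copy of PGAM1, these readings are uncertain. The probe named PGAM4 was at -0.02 (SE 0.13), with overlapping groups. LDHB, the lactate dehydrogenase of heart, also had 2 probes with no overlap, at -0.23 (SE 0.16) and -0.30 (SE 0.20), with vehicle replicate 3 above all other tumors. Without that tumor the differences were -0.06 and -0.09. Over the list, 4 probes were separated upward and 6 downward, or 8.16% and 12.2%, beside 6.34% and 9.15% of all tested probes.

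**Figure D4:**
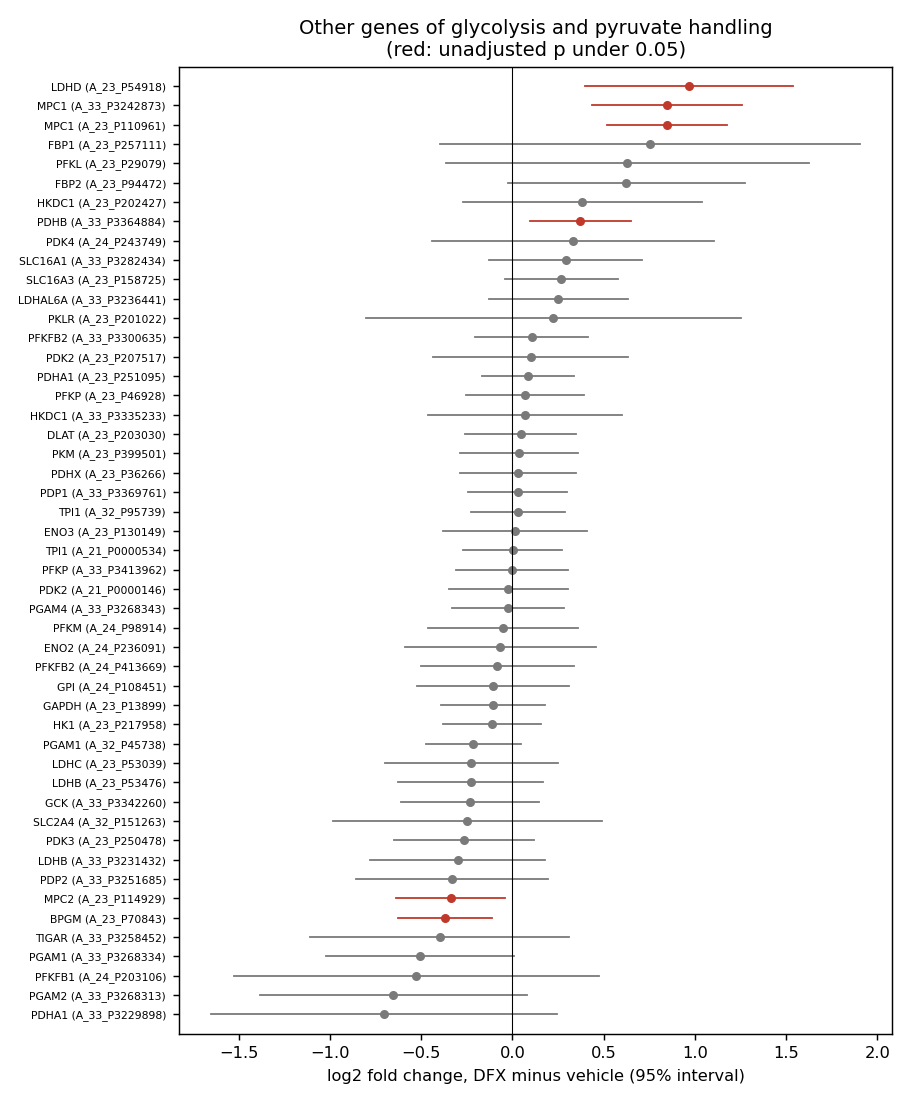
Log2 difference between DFX and vehicle tumors with its 95% interval from limma for the 49 tested probes of the 40 other genes of glycolysis and pyruvate handling, ordered by the difference. Red marks the 6 probes at an unadjusted p under 0.05, from LDHD (0.97) and the 2 probes of MPC1 (0.85 each) at the top to BPGM (-0.37) near the bottom. The PDHA1 probe A_33_P3229898, PFKFB1, FBP2 and SLC2A4 were not well above background on any DFX array, so their positions carry no fold.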

How the data were processed

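RNA of 6 xenograft tumors, 3 per group by the sample labels, was measured. The authors deposited the scanner output of every array and 1 table of processed values. The scanner software was Agilent Feature Extraction, version 10.7.1.1 per the file headers and 9.5.1.1 in the submitters' processing notes. The deposited spot intensities are linear and background-subtracted but not normalized between arrays, and each has a deposited p-value against its background. The deposited table holds the authors' normalized intensities and was used as an alternative.

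The processed signal of 58717 non-control spots was put on the log2 scale and quantile-normalized. Outlier-flagged spot values (1398) were dropped, and a probe took the mean of its spots. The detection filter kept 31807 of 50599 probes, those whose median p-value over spots was under 0.05 on each of the 6 arrays. The DFX and vehicle tumors were compared with lmFit and eBayes in limma 3.58.1 and R 4.3.3 (prior degrees of freedom 2.04), with Benjamini-Hochberg adjustment over the tested probes. Intervals are at 95%. The number of arrays limits the precision. The labels name separate tumors, and the limma p-values set the difference between the groups against the spread between tumors within a group.

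The members and gene lists were chosen with earlier results of these data known. All members and all their probes are named. Of the other lists, genes with a probe at an unadjusted p under 0.05 or without overlap between groups are named, at most 10 for glycolysis and 6 for HIF targets and subunits, by p. Names are those of the array, with 5 older symbols matched to RefSeq synonyms. 1 gene of the glycolysis list is not reported here. Probe positions are on hg19 and promoter positions on GRCh38.p14, and the builds were not mixed. The fit was tested on simulated data. Alternatives covered outlier flags, normalization, background correction, the authors' table, dim probes, the test, array weights, the replicate number as a block and each tumor left out in turn. Replicate numbers did not pair the tumors: deviations from the group means correlated at 0.027, 0.027 and 0.016.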

Additional observations from a re-analysis of the deposited data

How the results depend on the processing

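For the member probes, 212 of the values recomputed under an alternative kept their direction and their side of an unadjusted p of 0.05, 8 moved past it, 7 no longer passed and 9 changed sign, none of the last past the threshold. The count of member probes passing was 2 with 75th percentile scaling, median scaling, normexp background correction or the filter for probes well above background, where the second LDHA probe (A_32_P44568) passed beside PFKFB4, and 0 without moderation of the variance. It was 0 to 1 with each tumor left out, the probe being LDHA A_32_P44568 without vehicle replicate 3 and PFKFB3 A_24_P206604 without DFX replicate 3. The Kruskal-Wallis H test gave 4927 of all tested probes, since its p falls under 0.05 whenever 3 tumors do not overlap with 3, and the 1 member probe it called was LDHA A_32_P44568. The other glycolysis probes passing were 6, and 10 in the Kruskal-Wallis H test and 4 to 10 with each tumor left out (10 without vehicle replicate 1). With array quality weights HK2 A_32_P175739 was -0.094, and the 1 member probe passing was LDHA A_32_P44568 in place of PFKFB4. With each tumor left out, the differences ranged from -0.29 to 0.20 for SLC2A1 A_33_P3344801 (dim on every DFX array, so these carry no fold), -0.062 to 0.38 for HK2 A_32_P175739, -0.28 to 0.029 for ALDOC and -0.15 to 0.052 for LDHA A_23_P47565. The causes were not tested. Under median scaling the median over all tested probes shifted by -0.08 and the share of lower calls went from 58.8% to 71.8% (42.6% with 75th percentile scaling), and no member changed direction under either. With the replicate block, 2419 of all tested probes passed, with 1 member probe (PFKFB4) and 7 other glycolysis probes among them. PGAM1 A_33_P3268334 was gained under this block, and MPC2 and ANGPTL4 were lost. Dim probes (the second probes of SLC2A1 and HK2) are limited by their signal over background.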
